A study of Rattus norvegicus with 9 samples.

Results

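The 10 transcripts described here encode 6 annexins (Anxa1, Anxa2, Anxa3, Anxa4, Anxa5 and Anxa6) and 4 S100 proteins (S100a6, S100a10, S100a11 and S100b). They are 10 of the 36051 genes in the deposited count table, and all 10 were among the 16678 genes with enough counts to be tested. The members were chosen by name, and the names were selected on values of these same libraries, with no threshold. Their differences between groups are therefore given as values and counts, with no test read from them. RNA was sequenced from the spinal cord of rats labelled WT, 3 days after operation, in 3 groups of 3 libraries. SCI_ALA cords had a T9 impact contusion and α-lipoic acid, a cofactor and antioxidant. SCI_Veh cords had the same contusion with saline as vehicle, and sham cords had a sham operation. Strain, sex, age and the dose of α-lipoic acid are not given in the sources used here. Nothing says that the libraries of a group came from separate animals, so the p-values below measure the spread between these libraries, which may be technical.

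Annexins are cytosolic proteins that attach to negatively charged membrane lipids when calcium rises, and S100 proteins are small EF-hand calcium sensors that mostly act as dimers. Several S100 dimers bridge pairs of annexins, and such complexes are known from membrane repair, exocytosis and the cell surface, where S100a10 with Anxa2 gathers plasminogen and its activator. In the nervous system S100b is an abundant protein of astrocytes and of some oligodendrocyte-lineage cells, and it is used as a marker of glial injury when it is released.

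Libraries held 13857771 to 15736132 counts. Levels below are CPM, counts relative to the library total, scaled by TMM factors of 0.862 to 1.08, and a gene is called where the edgeR quasi-likelihood test gave an adjusted p below 0.05 over all tested genes. The tissue label was checked on marker lists. All 12 neuron, all 12 astrocyte and all 12 oligodendrocyte markers were detected, while Cldn5, an endothelial tight-junction gene, was listed at 0 in every library. The 15 microglia and macrophage markers summed to 3662 to 4734 CPM in SCI_ALA and 3833 to 4625 CPM in SCI_Veh libraries, against 694 to 968 CPM in sham libraries. Of these 15 markers, 13 rose and 0 fell in SCI_Veh against sham, and 11 rose and 1 fell in SCI_ALA against sham. Of 12 fibroblast and pericyte markers 2 rose and 0 fell in either comparison, and of 9 tested endothelial markers 1 rose and 2 fell. Because the cords are bulk tissue, more cells of a type and more RNA per cell cannot be told apart, and the part of the macrophage markers in the values below was not tested. Libraries also differed in how their counts ran with gene length. The correlation of a library's deviation with gene length was 0.0328, -0.285 and -0.46 in SCI_ALA 1, 2 and 3, 0.118, 0.0517 and 0.0553 in SCI_Veh 1, 2 and 3, and 0.238, -0.188 and 0.342 in sham 1, 2 and 3.

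In SCI_Veh against sham, 8 of the 10 members were called higher, S100b was called lower, and Anxa5 was not called. Of all tested genes 19.5% were called higher and 18.5% lower in that comparison. In SCI_ALA against sham, 7 were called higher and S100b was again called lower, while Anxa5 and Anxa6 were not called, beside 17.3% and 15.8% of all tested genes. Both comparisons share the sham libraries. The CPM ranges did not overlap for 9 of the 10 members in SCI_Veh against sham and for 9 in SCI_ALA against sham, beside 49.7% and 45.7% of all tested genes. The median log2 fold change of the members was 1.30 in SCI_Veh against sham and 1.51 in SCI_ALA against sham, beside 0.0029 and -0.0089 over all tested genes. Since these contrasts chose the members, nothing is read from the counts.

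**Figure D1:**
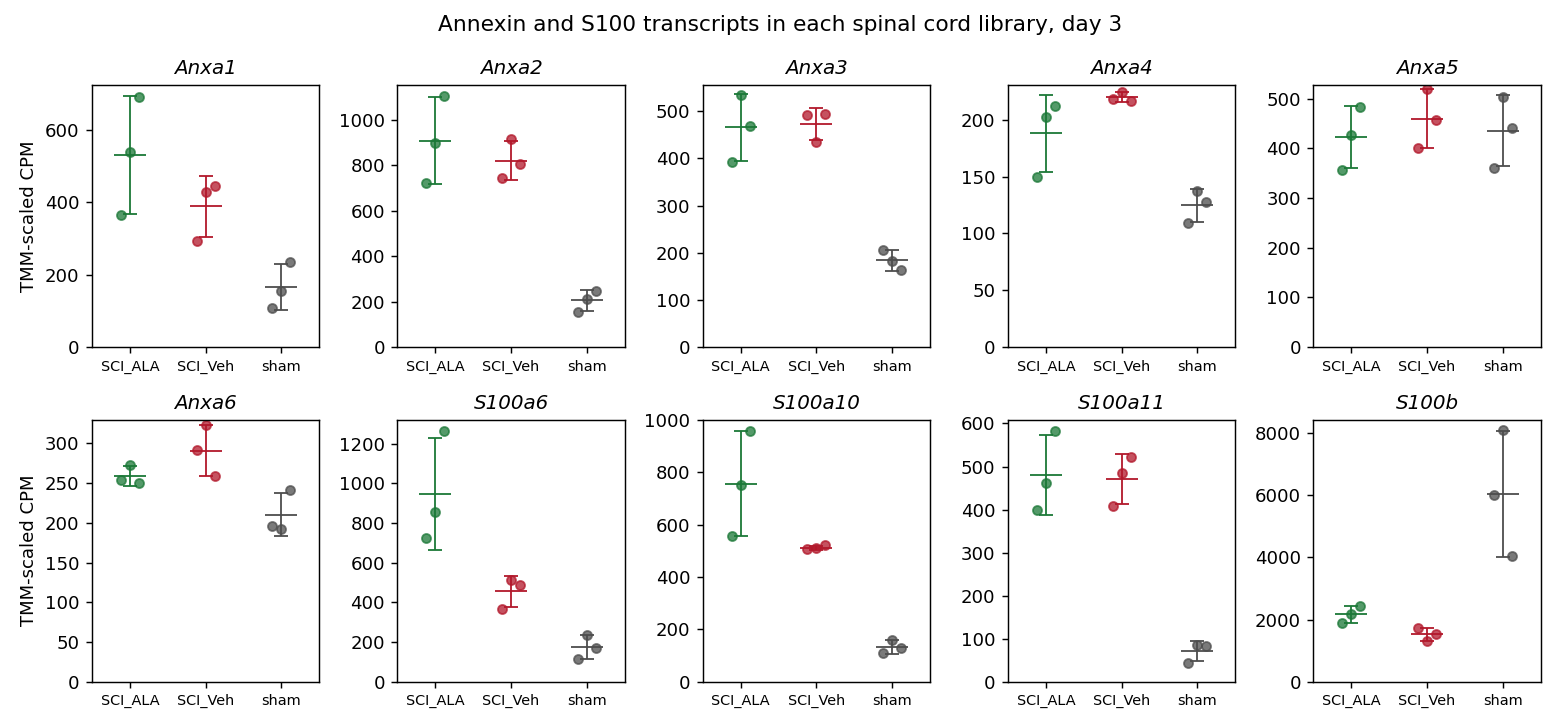
TMM-scaled CPM (vertical axis, from 0) of the 10 members in each library, with SCI_ALA, SCI_Veh and sham from left to right. Points are the 3 libraries of a group, the horizontal line is their mean and the bar their SD; S100b lay at 1299.7 to 2444 CPM in the injured cords and at 4038 to 8098 CPM in sham cords, and Anxa5 overlapped across all groups.

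Anxa2 and its partner S100a10 both stood several-fold higher in injured cords. Anxa2 (chromosome 8, 75687100 to 75723594, plus strand, Rnor_6.0), which binds phospholipid and actin at the plasma membrane, had 722, 896 and 1106 CPM in SCI_ALA, 743, 914 and 805 CPM in SCI_Veh and 154, 212 and 247 CPM in sham libraries. Every injured library was above every sham library, and the 2 injured groups overlapped. Its log2 fold change was 2.005 ± 0.22 (SE, n = 3 each) in SCI_Veh against sham and 2.15 ± 0.22 in SCI_ALA against sham, and 0.15 ± 0.21 in SCI_ALA against SCI_Veh. S100a10 (chromosome 2, 193892589 to 193901236, plus strand), also called p11, holds Anxa2 in a heterotetramer and has lost the ability to bind calcium. It had 557, 751 and 959 CPM in SCI_ALA, 507, 509 and 521 CPM in SCI_Veh and 109, 161 and 127 CPM in sham libraries. All SCI_ALA libraries were above all SCI_Veh libraries, which were above all sham libraries. The log2 fold change was 1.95 ± 0.22 in SCI_Veh against sham and 2.51 ± 0.22 in SCI_ALA against sham.

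Because both partners are counted over their own gene length, their ratio was taken from the deposited FPKM, which the authors divided by length. The ratio of S100a10 to Anxa2 was 1.85, 2.01 and 2.08 in SCI_ALA, 1.64, 1.34 and 1.56 in SCI_Veh and 1.70, 1.82 and 1.24 in sham libraries. Sham libraries covered the SCI_Veh range, while the SCI_ALA ratios, with a mean of 1.98 ± 0.117 (SD, n = 3), lay above those of the other groups, whose means were 1.51 ± 0.155 in SCI_Veh and 1.59 ± 0.309 in sham. S100a10 has a gene model of 573 bases and Anxa2 of 1376 bases, so the ratio also carries the length trends of the libraries given above.

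S100a11 and Anxa1 form another known pair. S100a11 (chromosome 2, 193866951 to 193868502, plus strand), which binds the amino-terminal tail of Anxa1 and takes part in resealing of damaged plasma membranes, had 398, 463 and 582 CPM in SCI_ALA, 408, 485 and 522 CPM in SCI_Veh and 43.6, 85.8 and 81.9 CPM in sham libraries. The injured groups overlapped and sham libraries lay far below them. Its 6.70-fold difference in SCI_Veh and 6.83-fold difference in SCI_ALA, both against sham, were the largest among the members. On the log2 scale they were 2.74 ± 0.26 in SCI_Veh and 2.77 ± 0.26 in SCI_ALA (SE). Anxa1 (chromosome 1, 237893966 to 237910012, minus strand), a glucocorticoid-induced ligand of formyl peptide receptors, had 365, 538 and 691 CPM in SCI_ALA, 292, 428 and 444 CPM in SCI_Veh and 108, 155 and 233 CPM in sham libraries. Every injured library was above the sham range, which was wide. The log2 fold change of Anxa1 was 1.23 ± 0.30 in SCI_Veh against sham and 1.68 ± 0.30 in SCI_ALA against sham. The FPKM ratio of S100a11 to Anxa1 was 4.43 ± 0.658 in SCI_ALA and 5.89 ± 0.679 in SCI_Veh cords, against 2.08 ± 0.503 in sham cords (SD, n = 3 each). Thus S100a11 stood higher relative to Anxa1 in each injured library, at 4.01 to 6.66, than in any sham library, at 1.67 to 2.64. The gene model of S100a11 has 297 bases, a multiple of 3 close to a coding length, so its FPKM may stand too high against those of members with untranslated sequence, in every group alike. Anxa1 has a gene model of 1415 bases, so the ratio also carries the length trends of the libraries given above, which differed between groups.

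**Figure D2:**
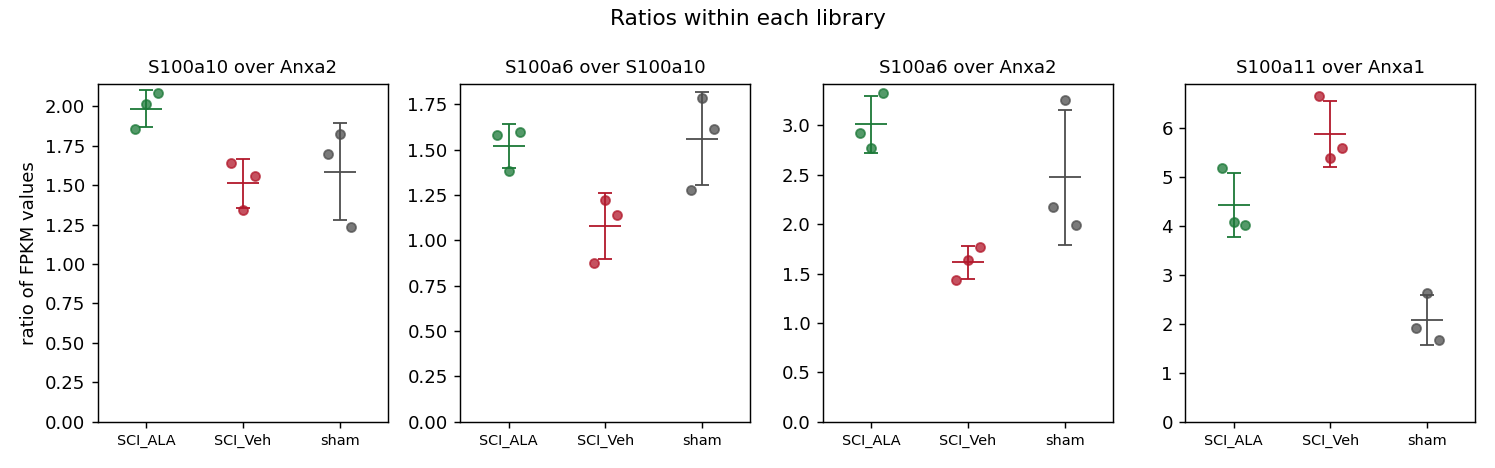
Ratio of deposited FPKM values (vertical axis, from 0) within each library for 4 pairs of members, with SCI_ALA, SCI_Veh and sham from left to right. Points are libraries, lines are means and bars are SDs; S100a11 over Anxa1 was 4.01 to 6.66 in injured libraries and 1.67 to 2.64 in sham libraries.

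S100a6 (chromosome 2, 190007216 to 190008511, plus strand), known as calcyclin, binds the calcyclin-binding protein Cacybp and also several annexins. It had 725, 853 and 1263 CPM in SCI_ALA, 366, 513 and 489 CPM in SCI_Veh and 115, 237 and 169 CPM in sham libraries. The 3 groups did not overlap, with SCI_ALA on top and sham at the bottom. The log2 fold change was 1.39 ± 0.28 in SCI_Veh against sham and 2.45 ± 0.29 in SCI_ALA against sham (SE). Against S100a10, the FPKM ratio of S100a6 was 1.52 ± 0.122 in SCI_ALA, 1.08 ± 0.181 in SCI_Veh and 1.56 ± 0.257 in sham cords (SD, n = 3 each), so that SCI_ALA and sham overlapped and SCI_Veh lay below both.

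Anxa3 (chromosome 14, 14364008 to 14426437, minus strand), an annexin that is abundant in neutrophil granules and in microglia, had 393 to 535 CPM in SCI_ALA, 434 to 493 CPM in SCI_Veh and 163 to 207 CPM in sham libraries. Both injured groups lay above sham, by 2.57-fold in SCI_Veh and 2.53-fold in SCI_ALA, and covered the same range. Anxa4 (chromosome 4, 118538777 to 118595580, minus strand), which self-associates on membranes and is known from epithelia, had 149, 202 and 212 CPM in SCI_ALA, 218, 225 and 216 CPM in SCI_Veh and 109, 137 and 128 CPM in sham libraries. SCI_Veh was highest, SCI_ALA lay between it and sham, and no groups overlapped. The log2 fold change of Anxa4 was 0.82 ± 0.16 in SCI_Veh against sham and 0.59 ± 0.16 in SCI_ALA against sham. The call in SCI_ALA against sham was lost without SCI_ALA 2, at 0.54, and without SCI_ALA 3, at 0.50.

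Anxa6 (chromosome 10, 40320581 to 40375605, minus strand), the annexin with a duplicated core, is known from endosomes and repair caps. It had 254, 273 and 250 CPM in SCI_ALA, 292, 323 and 259 CPM in SCI_Veh and 197, 193 and 242 CPM in sham libraries. Sham 3 came close to the injured libraries without reaching them. The log2 fold change was 0.47 ± 0.15 in SCI_Veh against sham and 0.30 ± 0.15 in SCI_ALA against sham. Its call in SCI_Veh against sham was lost without SCI_Veh 1 (0.49), SCI_Veh 2 (0.39), sham 1 (0.44) or sham 2 (0.40). Anxa6 overlaps AC093965.1 on the opposite strand over 633 bases, a gene with 132 counts in all 9 libraries together, and whether counting used strand is not stated. Anxa5 (chromosome 2, 123162461 to 123193130, minus strand), the phosphatidylserine-binding protein used to stain dying cells, had 357 to 482 CPM in SCI_ALA, 401 to 519 CPM in SCI_Veh and 360 to 503 CPM in sham libraries. The groups overlapped throughout, with log2 fold changes of 0.08 ± 0.18 in SCI_Veh and -0.04 ± 0.18 in SCI_ALA, both against sham.

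**Figure D3:**
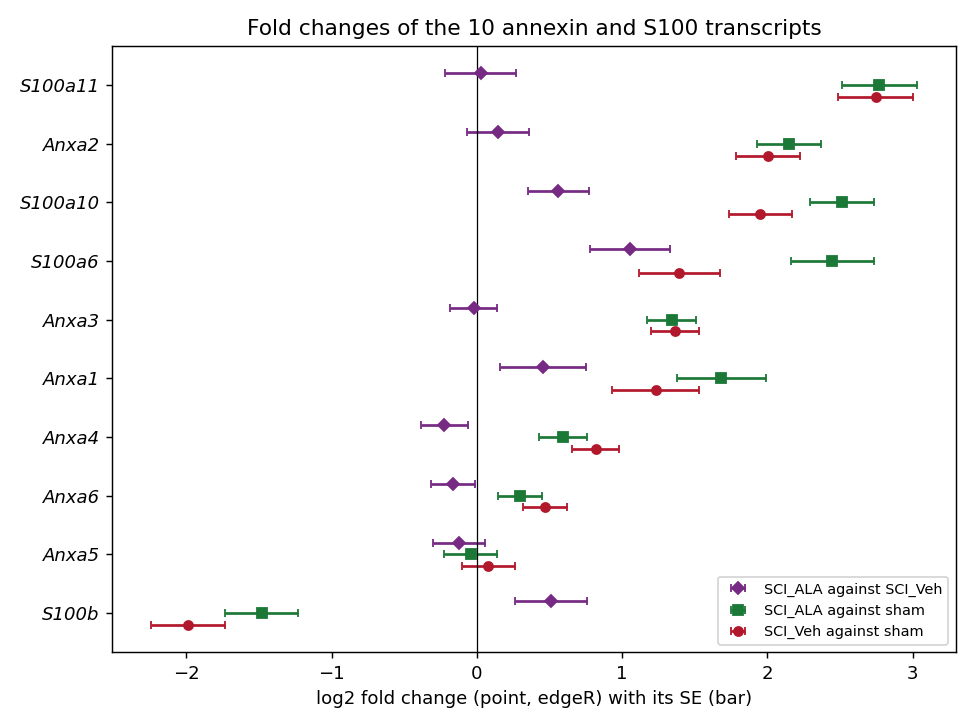
Log2 fold change (horizontal axis) of each member with its SE in 3 comparisons, from edgeR; members run from S100a11 at the top to S100b at the bottom by their value in SCI_Veh against sham. S100b is the member with values below 0 in both comparisons with sham, at -1.99 in SCI_Veh and -1.48 in SCI_ALA, and S100a6 has the largest value in SCI_ALA against SCI_Veh, at 1.05.

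S100b (chromosome 20, 13130636 to 13142856, minus strand) was the member that stood lower after injury. It had 1896, 2168 and 2444 CPM in SCI_ALA, 1730.5, 1299.7 and 1544.9 CPM in SCI_Veh and 6019, 8098 and 4038 CPM in sham libraries. The groups did not overlap: SCI_Veh was lowest, SCI_ALA came next, and the sham libraries were highest and most spread. The log2 fold change was -1.99 ± 0.26 in SCI_Veh against sham and -1.48 ± 0.25 in SCI_ALA against sham (SE), a 3.97-fold and a 2.79-fold lower level. Most markers of the cells that are known to make S100b were also lower. In SCI_Veh against sham 10 of 12 astrocyte markers and 10 of 12 oligodendrocyte markers fell, as many fell in SCI_ALA against sham, and 0 rose. The oligodendrocyte markers summed to 24320 to 33860 CPM in SCI_ALA and 19690 to 33130 CPM in SCI_Veh libraries, against 48710 to 87150 CPM in sham libraries. The astrocyte markers summed to 9349 to 9759 CPM in SCI_ALA and 6064 to 8571 CPM in SCI_Veh libraries, against 8963 to 11830 CPM in sham libraries. The SCI_ALA sums thus overlapped those of sham. A large part of each sum was Gfap, which was not called in either comparison with sham. Its means were 8042.5 CPM in SCI_ALA, 6194 CPM in SCI_Veh and 5927 CPM in sham cords, and its SCI_ALA libraries all lay above sham. Of 9 Schwann cell markers, 4 fell and 0 rose in SCI_Veh against sham, and 2 fell and 0 rose in SCI_ALA against sham. Beside them, 18.5% and 15.8% of all tested genes were called lower. The sum of the Schwann cell markers was 284 to 302 CPM in SCI_ALA, 225 to 434 CPM in SCI_Veh and 397 to 905 CPM in sham libraries. The part of these glial markers in the S100b values was not tested.

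Per gene length, the order of the members changed with injury. In sham cords S100b had 4045 FPKM, with S100a6 next at 365 FPKM, and Anxa4 and Anxa3 came last at 61.4 and 46.7 FPKM. S100b did not overlap S100a6 there, whereas S100a6, Anxa5, S100a11 and S100a10, at 365 to 229.5 FPKM, overlapped their neighbours. In SCI_Veh cords S100a11 led with 1564 FPKM and did not overlap S100b at 1009.9 FPKM, which overlapped S100a6 at 951 FPKM and through it S100a10 at 879.95 FPKM. In SCI_ALA cords S100a6 led with 1985 FPKM, followed by S100a11 at 1601, S100b at 1446 and S100a10 at 1305 FPKM, each overlapping the next. The place of S100a11 rests on its gene model of 297 bases, by which its FPKM may stand too high. In CPM, S100b had the highest mean of the members in each group, at 2169 CPM in SCI_ALA, 1525 CPM in SCI_Veh and 6052 CPM in sham cords. Anxa2 led the annexins in both injured groups, at 653 FPKM in SCI_ALA and 587 FPKM in SCI_Veh, while Anxa5 led them in sham cords at 279.9 FPKM. S100b made up 18.45% ± 1.65 of the summed FPKM of the 10 members in SCI_ALA and 17.29% ± 3.41 in SCI_Veh, against 71.29% ± 8.37 in sham cords (SD, n = 3 each). The sum itself was 6323 to 9799.8 FPKM in SCI_ALA, 5417 to 6143 FPKM in SCI_Veh and 4408 to 7221 FPKM in sham libraries, so that every SCI_ALA library lay above every SCI_Veh library and sham overlapped both groups.

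**Figure D4:**
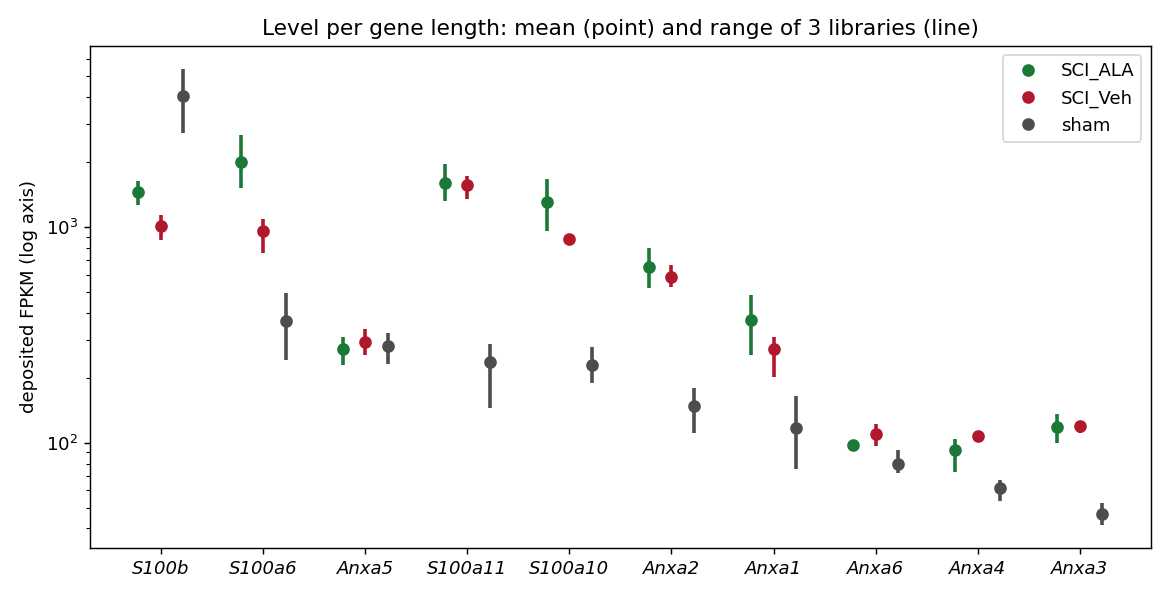
Deposited FPKM of the members on a log axis, with members ordered by their sham level and, within each member, SCI_ALA, SCI_Veh and sham from left to right. Points are means and lines the range of 3 libraries; S100b leads in sham cords at 4045 FPKM, S100a11 in SCI_Veh cords at 1564 FPKM and S100a6 in SCI_ALA cords at 1985 FPKM.

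In SCI_ALA against SCI_Veh, 0 of the 10 members were called by edgeR, beside 0.0779% of all tested genes called higher and 0.042% called lower. At an unadjusted p below 0.05 there were 2 members, S100a6 and S100a10, beside 12.3% of all tested genes, and DESeq2 called 1, S100a6, beside 2.3% of the genes it tested. Across all genes edgeR called 20, a count that lay between 0 (without SCI_ALA 2) and 86 (without sham 2) and moved by more than 1.5 times whichever of the 9 libraries was left out. Ranges did not overlap for 4 members, beside 23.8% of all tested genes: S100a6, S100a10 and S100b were higher and Anxa4 was lower in SCI_ALA. S100a6 was 2.08-fold, S100a10 1.475-fold and S100b 1.42-fold higher, and Anxa4 1.17-fold lower. Their log2 fold changes were 1.05 ± 0.28, 0.56 ± 0.21, 0.51 ± 0.25 and -0.23 ± 0.16 (SE, n = 3 each). The other 6 members overlapped, with log2 fold changes of -0.17 to 0.45. The median over the 10 members was 0.09, beside -0.0084 over all tested genes.

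S100a6 and S100a10, which stood highest in SCI_ALA against SCI_Veh, have gene models of 472 and 573 bases. Those of the 6 annexins run from 1376 to 3913 bases. S100a11, with the shortest model at 297 bases, had a log2 fold change of 0.03. S100b, with 1484 bases, and Anxa1, with 1415, came next after S100a10, at 0.51 and 0.45. Counts in SCI_ALA 2 and 3 were tilted towards short genes. With the length trend of each library removed, the log2 fold change in SCI_ALA against SCI_Veh was 0.79 ± 0.19 for S100a6, 0.32 ± 0.14 for S100a10 and -0.25 ± 0.19 for S100a11, against 1.05, 0.56 and 0.03 without the correction. S100b, with 1484 bases, had 0.43 ± 0.20 with it. The same correction left 9 members called in SCI_Veh against sham and 8 in SCI_ALA against sham, with S100a6 at 2.02, S100a10 at 2.12 and S100a11 at 2.26 in SCI_ALA against sham.

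The 250 bases before the annotated start were read from RefSeq (build GRCr8) for 8 of the 10 members; Anxa6 and S100a10 had no entry. They were searched on both strands for TGANTCA (AP-1), GGGCGG (Sp1) and TGACGTCA (CRE), and on the gene's strand for the core promoter box TATAAA, and matches are in capitals. Among 33469 promoters of the same length, 6.34% held TGANTCA, 30.5% GGGCGG, 8.06% TATAAA and 1.59% TGACGTCA. The promoters of Anxa2 (chr8:78986002-78986251, plus strand), S100a11 (chr2:181874882-181875131, plus strand), S100a6 (chr2:178398287-178398536, plus strand) and S100b (chr20:12381082-12381331, minus strand) are shown because Anxa2, S100a11 and S100a6 belong to transcripts that stood higher in injured cords and S100b to the one that stood lower.
Anxa2: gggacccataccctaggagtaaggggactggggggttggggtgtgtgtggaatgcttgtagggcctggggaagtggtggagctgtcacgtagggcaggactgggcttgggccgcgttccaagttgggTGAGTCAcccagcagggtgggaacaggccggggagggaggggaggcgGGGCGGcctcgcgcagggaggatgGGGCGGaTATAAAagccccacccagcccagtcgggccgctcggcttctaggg
S100a11: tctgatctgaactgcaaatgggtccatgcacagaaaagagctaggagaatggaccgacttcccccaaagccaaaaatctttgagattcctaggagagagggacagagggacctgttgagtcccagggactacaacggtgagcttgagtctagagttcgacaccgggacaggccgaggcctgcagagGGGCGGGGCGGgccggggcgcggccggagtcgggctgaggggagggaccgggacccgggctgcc
S100a6: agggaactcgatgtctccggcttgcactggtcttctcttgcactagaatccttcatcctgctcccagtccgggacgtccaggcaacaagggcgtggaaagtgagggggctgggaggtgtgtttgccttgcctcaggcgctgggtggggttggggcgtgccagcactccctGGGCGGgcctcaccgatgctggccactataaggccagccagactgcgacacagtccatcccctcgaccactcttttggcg
S100b: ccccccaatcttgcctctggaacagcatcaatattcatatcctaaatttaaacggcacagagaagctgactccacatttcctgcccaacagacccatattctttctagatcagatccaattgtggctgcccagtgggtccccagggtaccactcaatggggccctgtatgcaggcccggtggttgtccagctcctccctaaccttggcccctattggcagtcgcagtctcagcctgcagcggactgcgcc

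The Anxa2 sequence held TGAGTCA, a form of the AP-1 motif, 123 bases before the start, GGGCGG at 76 and 52 bases and TATAAA at 45 bases. S100a11 held 2 copies of GGGCGG that share their middle base, at 64 and 59 bases, and S100a6 held 1 at 80 bases. S100b held none of the 4 motifs, and Anxa1, not printed, held TATAAA at 46 bases and none of the others. Anxa3, Anxa4 and Anxa5, not printed either, held GGGCGG and none of the others. It stood at 203, 146 and 44 bases in Anxa3, at 22 in Anxa4 and at 130 in Anxa5, which was not called in injured cords. No window held TGACGTCA. These are matches of letters, not evidence of binding.

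To see which transcripts ran most like the members, each gene with a mean of at least 50 counts was centred on its own mean of log2(CPM + 0.5), and the root mean square (RMS) difference over the 9 libraries was taken, as a description over libraries that share groups and depth. Of 13001 other genes, Anxa2 was closest to Vim, the intermediate filament vimentin, with an RMS difference of 0.122, then to Arpc1b, a subunit of the Arp2/3 actin complex, and Clic1, an intracellular chloride channel protein. S100a10 stood at rank 27 for Anxa2, and Anxa2 at rank 11 for S100a10, whose closest genes were LOC108350502, the ribosomal protein gene Rps2 and the heme-binding gene Hebp1. Anxa1 was closest to Smagp (0.148), Cebpd, a transcription factor of the acute-phase response, and Csrp2, with Anxa2 at rank 92 and S100a11 at rank 2583. S100b was closest to Rnd2 (0.095), Plekhb1 and Adhfe1, and its nearest fellow member, Anxa5, stood at rank 6042. Anxa6 was closest to Zmpste24 (0.062), Rsbn1l and Txndc5, with Anxa4 at rank 1479.

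Of 19 other annexin and S100 genes in the table, 11 had enough counts to be tested, and the other 8 (S100a5, Anxa13, S100a7a, S100g, Anxa10, S100z, S100vp and S100a7l2) had at most 10 counts over all libraries. In SCI_Veh against sham, edgeR called 4 of the 11 higher and 2 lower, and in SCI_ALA against sham 5 higher and 1 lower. The shares of all tested genes were 19.5% higher and 18.5% lower in SCI_Veh and 17.3% and 15.8% in SCI_ALA, and the counts called lower are near them. S100a4, which is known from motile cells, macrophages and fibroblasts, had 209, 306 and 320.01 CPM in SCI_ALA, 223, 216 and 209 CPM in SCI_Veh and 31.7, 36.1 and 30.8 CPM in sham libraries. It rose 6.58-fold in SCI_Veh and 8.48-fold in SCI_ALA, both against sham (edgeR adjusted p = 1.87e-06 and 1.53e-06). Anxa7, a vesicle-aggregating annexin, rose 1.92-fold in SCI_Veh and 1.95-fold in SCI_ALA (edgeR adjusted p = 0.000357 and 0.000402). Anxa11, which tethers RNA granules to lysosomes, rose 1.785-fold in SCI_Veh and 1.98-fold in SCI_ALA (edgeR adjusted p = 0.00813 and 0.00372). For these 3 genes every injured library lay above every sham library.

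S100a3 had 9.84 to 14.7 CPM in SCI_ALA and 10.998 to 12.7 CPM in SCI_Veh libraries, against 1.997 to 8.46 CPM in sham libraries, and rose 2.37-fold in SCI_Veh and 2.35-fold in SCI_ALA (edgeR adjusted p = 0.0288 and 0.0338). Its call in SCI_Veh against sham was lost without SCI_Veh 2, SCI_Veh 3 or sham 1 (edgeR adjusted p = 0.0545 to 0.07), and that in SCI_ALA against sham without sham 1, sham 3, SCI_ALA 2 or SCI_ALA 3 (edgeR adjusted p = 0.0523 to 0.115). S100a1, a calcium sensor best known from heart muscle, had 46.4 to 56.2 CPM in SCI_ALA and 51.6 to 63.5 CPM in SCI_Veh libraries, against 59.5 to 135 CPM in sham libraries. It fell 1.70-fold in SCI_Veh and 1.89-fold in SCI_ALA (edgeR adjusted p = 0.0267 and 0.013), and the call in SCI_Veh was lost without SCI_Veh 2, SCI_Veh 3, sham 1 or sham 2 (edgeR adjusted p = 0.0504 to 0.0885). The call of S100a1 in SCI_ALA against sham was kept whichever library was left out, though without sham 2 its log2 fold change was -0.59, against -0.92 with all libraries. S100a16 had 229 to 317 CPM in SCI_ALA and 173 to 197 CPM in SCI_Veh libraries, against 216 to 440 CPM in sham libraries. It fell 1.64-fold in SCI_Veh (edgeR adjusted p = 0.0329), a call that was lost without SCI_Veh 1, 2 or 3, sham 2 or SCI_ALA 2 (edgeR adjusted p = 0.0509 to 0.102).

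Anxa8 had 9.57, 10.8 and 11.3 CPM in SCI_ALA, 3.15, 7.065 and 2.63 CPM in SCI_Veh and 3.86, 4.27 and 4.86 CPM in sham libraries. It rose 2.44-fold in SCI_ALA against sham (edgeR adjusted p = 0.0161), a call that was lost without sham 1 or SCI_ALA 3 (edgeR adjusted p = 0.0535 and 0.0517). In SCI_ALA against SCI_Veh edgeR called 0 of the 11 genes; 2 (Anxa8 and S100a16) were at an unadjusted p below 0.05, beside the 12.3% of all tested genes, and DESeq2 called 1, Anxa8, at 2.47-fold in edgeR with all SCI_ALA libraries above all SCI_Veh libraries. S100a13 was not called in any comparison with all 9 libraries, though it was called in SCI_ALA against sham without sham 2 (edgeR adjusted p = 0.0172). Anxa9 stayed below 3 CPM in each library.

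S100a8 and S100a9, the calprotectin subunits of neutrophils, were high in some libraries of SCI_ALA and sham but not in others of the same groups. S100a9 had 56.6, 289 and 248 CPM in SCI_ALA, 37.0, 33.3 and 87.8 CPM in SCI_Veh and 57.8, 32.8 and 323 CPM in sham libraries, and S100a8 ran likewise. SCI_ALA 2, SCI_ALA 3 and sham 3 stood apart from the other 6 libraries. The other 10 neutrophil markers summed to 226, 342.5 and 437 CPM in SCI_ALA, 149, 126 and 199 CPM in SCI_Veh and 81.0, 39.3 and 325 CPM in sham libraries. These sums were highest in the same 3 libraries. A large part of them in the injured groups was Lcn2, with means of 182.5 CPM in SCI_ALA and 71.9 CPM in SCI_Veh. Lcn2 rose 12.1-fold in SCI_ALA and 4.76-fold in SCI_Veh, both against sham. Of the 12 neutrophil markers, only Lcn2 and Csf3r were called in the comparisons with sham, both higher. The part of neutrophils in the S100a8 and S100a9 values was not tested. Neither S100a8 nor S100a9 was called in any comparison.

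**Figure D5:**
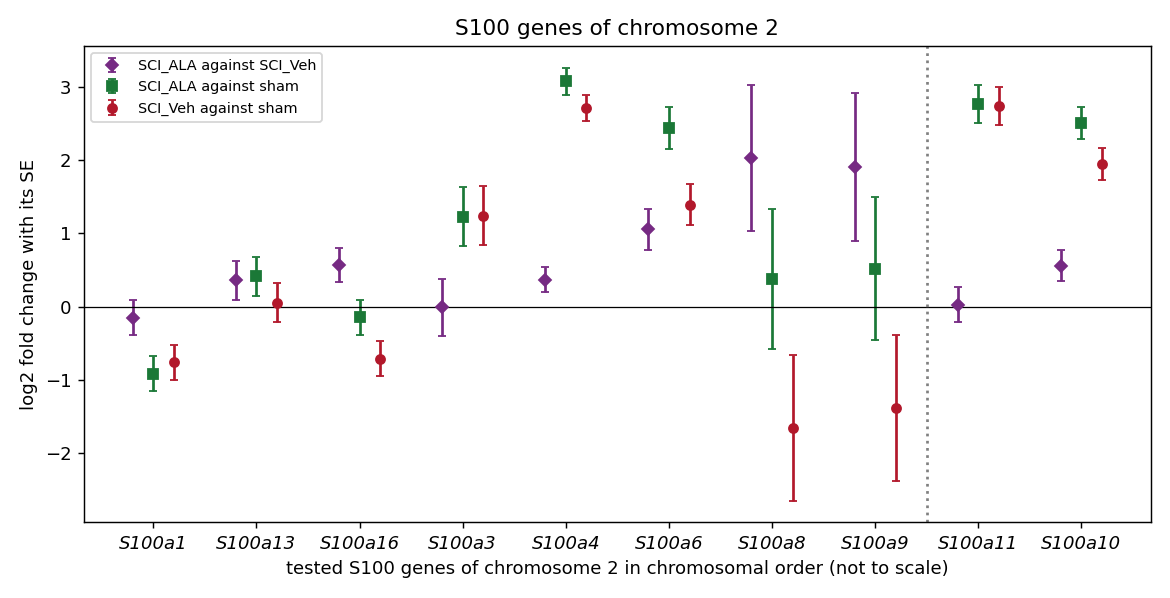
Log2 fold change with its SE (vertical axis) of the tested S100 genes of chromosome 2, placed in chromosomal order without scale, in 3 comparisons; the dotted line marks the long gap before S100a11 and S100a10. S100a3, S100a4, S100a6, S100a11 and S100a10 stand above 1 on average in SCI_Veh and SCI_ALA against sham, and S100a1 stands below 0 in both. S100a16 stands at -0.72 in SCI_Veh and, not called, at -0.15 ± 0.24 in SCI_ALA. S100a8 and S100a9 stand below 0 in SCI_Veh and above 0 in SCI_ALA, with wide SEs and not called.

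On chromosome 2 the tested S100 genes lie in the order S100a1, S100a13, S100a16, S100a3, S100a4, S100a6, S100a8, S100a9, S100a11 and S100a10 (Rnor_6.0). S100a1 at the start of the cluster fell, S100a16 fell in SCI_Veh, and S100a3, 1099 bases before S100a4, rose with it. S100a6, the next tested gene, stood higher too. Between S100a4 and S100a6 lies S100a5, which had 10 counts over all libraries and was not tested. S100a11 and S100a10, which are 24086 bases apart, both stood higher in injured cords. S100b lies on chromosome 20, away from the cluster.

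Genes that work with these proteins were followed on 5 lists. Beside their counts stand the shares of all tested genes. In SCI_Veh against sham 19.5% were called higher and 18.5% lower, and in SCI_ALA against sham 17.3% and 15.8%. On the list for membrane repair and calcium-triggered fusion, 9 of 15 tested genes rose and 1 fell in SCI_Veh against sham, and 9 rose and 1 fell in SCI_ALA against sham, with medians of 0.84 and 0.70 on the log2 scale. This list holds the annexins Anxa7 and Anxa11, whose rises were given above, so its counts partly repeat them. Myof, the ferlin myoferlin, rose 4.58-fold in SCI_Veh (edgeR adjusted p = 0.00015) and Pdcd6ip, the ESCRT adaptor ALIX, 1.72-fold (edgeR adjusted p = 0.000904). On the list for plasminogen activation, on which S100a10 with Anxa2 acts, 6 of 13 rose and 1 fell in each comparison with sham. Plau, the urokinase, had a mean of 28.7 CPM in SCI_ALA and 68.2 CPM in SCI_Veh, against 1.58 CPM in sham cords, and rose 42.6-fold in SCI_Veh (edgeR adjusted p = 1.66e-06). Plaur, its receptor, rose 12.9-fold in SCI_Veh (edgeR adjusted p = 1.4e-05), and Serpini1, the neuronal inhibitor neuroserpin, fell 4.31-fold (edgeR adjusted p = 5.76e-06).

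Of 12 tested receptors and signalling partners, 4 rose and 1 fell in SCI_Veh against sham, a total that dropped to 3 without SCI_Veh 2. The 1 that fell was Cacybp, the S100a6 partner, with means of 117 CPM in SCI_Veh and 175 CPM in sham cords (edgeR adjusted p = 0.0213, named after its value was seen). In SCI_ALA against sham 3 rose and 1 fell. For a list of 12 genes these counts are near the shares of all tested genes given above, and nothing is read from them. Cd33, a sialic-acid lectin of myeloid cells, rose 6.325-fold, Emb, the cell-surface glycoprotein embigin, 3.19-fold, and Pla2g4a, the cytosolic phospholipase that Anxa1 inhibits, 1.999-fold in SCI_Veh against sham (edgeR adjusted p = 4.37e-06, 0.000551 and 0.00311). Of 16 tested genes for phosphatidylserine recognition and engulfment, the process that Anxa5 reports on, 8 rose and 1 fell in SCI_Veh against sham and 7 rose and 3 fell in SCI_ALA against sham. Trem2, a lipid receptor of microglia and macrophages, rose 8.02-fold, Cd300lf 3.21-fold and Mertk, an engulfment kinase, 3.17-fold in SCI_Veh (edgeR adjusted p = 2.86e-06, 0.000103 and 3.91e-05). These genes moved beside the macrophage markers given above.

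Of 17 tested calcium sensors outside both families, 1 rose and 10 fell in SCI_Veh against sham, with a median of -0.93 on the log2 scale, and 1 rose and 8 fell in SCI_ALA against sham, where the total dropped to 5 without SCI_ALA 3. Vsnl1, Calb2 and Calb1, sensors and buffers of neurons, fell 6.61-fold, 4.74-fold and 4.09-fold in SCI_Veh against sham (edgeR adjusted p = 3.02e-05, 1.91e-05 and 3e-05). Neuron markers moved with them: 10 of 12 fell and 0 rose in SCI_Veh against sham, and their sums were 2568 to 3398 CPM in SCI_ALA and 2039 to 3027 CPM in SCI_Veh libraries, against 4943 to 7629 CPM in sham libraries. In SCI_ALA against SCI_Veh, edgeR called 1 gene on the 5 lists, Pvalb, a buffer of fast-spiking neurons and of muscle, with means of 40.9 CPM in SCI_ALA and 17.7 CPM in SCI_Veh (2.315-fold, edgeR adjusted p = 0.0483). That call was lost without SCI_Veh 1, 2 or 3, sham 3 or SCI_ALA 1, 2 or 3 (edgeR adjusted p = 0.0562 to 0.197). Without sham 2, Cd300lf was called lower in SCI_ALA than in SCI_Veh (edgeR adjusted p = 0.0472), and DESeq2 called 3 of the sensors higher and Plau and Cd300lf lower. Skeletal muscle markers, Pvalb among them, summed to 63.9 to 100.5 CPM in SCI_ALA, 25.5 to 39.9 CPM in SCI_Veh and 71.4 to 121.8 CPM in sham libraries. Pvalb itself made up a large part of these sums, so they partly repeat its values. The part of muscle in the Pvalb values was not tested.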

How the data were processed

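Each library's title gave its group and number. The authors deposited whole-number counts per gene and FPKM values for the same 9 libraries; HISAT2 2.0.5, featureCounts 1.5.0-p3, DESeq2 1.20.0 (no role given) and the build Rnor_6.0 are named, per the submitters' processing notes. Counts were fitted with edgeR 4.0.16 in R 4.3.3 (limma 3.58.1) over all libraries with group means, TMM factors, filterByExpr (minimum count 10, total 15) and the robust quasi-likelihood test, tested on simulated data. P-values were adjusted by Benjamini-Hochberg over 16678 genes, and the SE is the absolute log2 fold change divided by the square root of F. Per-length levels are the authors' FPKM. Members and lists were chosen with earlier results of these data known. Named were all family genes, up to 3 called genes per list with the smallest p in SCI_Veh against sham and up to 2 in SCI_ALA against SCI_Veh, and the 3 genes most like 5 members. Alternatives were RLE factors, no count filter, DESeq2 1.42.0, a replicate block, a loess gene-length offset (span 0.5), each library left out, and sham 2 with SCI_ALA 3 left out. The alternatives for list counts were added after the values were seen. Figures were drawn with matplotlib.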

Additional observations from a re-analysis of the deposited data

How the results depend on the processing

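Over the 15 alternatives, 8 or 9 members were called in SCI_Veh against sham and 7 or 8 in SCI_ALA against sham, where the changes were those of Anxa6 and Anxa4 with libraries left out, and no called member changed sign. In SCI_ALA against SCI_Veh, the count of all genes called by edgeR (20) was 45 without a count filter, 377 with DESeq2, 0 under the replicate block and 0 to 86 with single libraries left out. DESeq2 called 1 member, S100a6, and 1 other family gene, Anxa8, in that comparison, where edgeR called 0. Other family genes called in SCI_Veh against sham (6) ranged from 3 to 6 with single libraries left out. Under the replicate block 9, 8 and 0 members were called in SCI_Veh against sham, SCI_ALA against sham and SCI_ALA against SCI_Veh, and the calls of S100a16 in SCI_Veh against sham and of Pvalb in SCI_ALA against SCI_Veh were lost (edgeR adjusted p = 0.0519 and 0.0797). Without sham 2 and SCI_ALA 3 together, the genes called in SCI_ALA against sham were 2 on the receptor list and 6 on the engulfment list. The deviations of same-numbered libraries had correlations of -0.0855 to 0.18, and those of number 1 were all positive, at 0.0954 to 0.18. With 3 libraries per group, such values cannot show whether same-numbered libraries share a day or a batch. Short S100 transcripts are the ones that moved with the gene-length correction. Intervals from 3 libraries per group are wide, and the labels do not say which libraries share an animal, a day or a batch.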
